A study of Penicillium oxalicum with 18 samples.

Results

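The 2 genes of the filamentous fungus Penicillium oxalicum described here are PDE_02736 and PDE_00579, out of 9176 gene models measured. They were picked by their identifiers, which the literature on strain 114-2 names BGL1, the main extracellular beta-glucosidase, and BGL2, the main intracellular one. Both members were found in the table and both passed the filter on low values, as did 8455 gene models in all. The table itself pairs no identifier with a gene name, so neither enzyme name has a check in these data.

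Beta-glucosidases cut cellobiose and short cellodextrins into glucose. The secreted enzyme completes the breakdown of cellulose outside the hypha, and the intracellular enzyme acts on cellobiose that transporters have brought into the cell. In cellulolytic fungi these sugars also induce the cellulase genes, so that beta-glucosidases both release glucose and remove an inducer.

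The wild type was strain 114-2, and the other strain, the mutant, carried a deletion of vib1. Vib1 is a fungal transcription factor. In Neurospora it is known for its roles in the death of incompatible heterokaryons and in the production of secreted enzymes. Both strains were first grown for 24 h at 30 °C with 2% glucose, and the mycelia were then kept for 24 h in a medium with 2% glucose, with 2% N-acetylglucosamine (GlcNAc, the monomer of chitin) or with 1% bran plus 1% microcrystalline cellulose. The GlcNAc medium is named by the labels of its own samples and not by the protocol that states the pre-culture. The study asked, by its title, how Vib1 bears on development and on cellulolytic genes. There were thus 6 groups with 3 libraries each, and the labels do not say whether these came from separate cultures, so the p-values reflect the spread among these libraries alone, and that spread may be technical. How the deletion was made, and whether its strain is 1 isolate, is not given in the sources used here.

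The 18 libraries were tag libraries made from poly(A) RNA. Expression was deposited as FPKM, a fragment count divided by gene length and by library size, with library totals between 915811 and 1119470. On the sugars the totals went with strain. On glucose they were 915811 to 942984 in the mutant and 1008870 to 1029070 in wild type. On GlcNAc they were 921337 to 945944 in the mutant and 1079700 to 1119470 in wild type. On bran plus cellulose the strains overlapped. Read depth is unknown. Between 713 and 860 values per library were exactly 0, and none of these belonged to either member. The residual spread over all tested genes was 0.38 log2 units in replicate 3 of wild type on bran plus cellulose, against 0.21 to 0.36 in the other 17 libraries. It was also the lowest library of its group for both members. The strain labels were not checked against the deleted gene, because no identifier in the table is paired with vib1. The samples are mycelia in bulk, in which fewer cells of a kind and less RNA per cell cannot be told apart.

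BGL1 was the steadier of the pair: no library had less than 44.5 FPKM of it, and its group means spanned a ratio of 10.1. Library values are given in the order of replicates 1, 2 and 3. In wild type on bran plus cellulose it stood at 315, 362 and 226 FPKM. The glucose libraries of wild type had 189, 173 and 203 FPKM. Those on GlcNAc had 52.3, 51.1 and 44.5 FPKM. The 3 wild-type groups did not overlap, with bran plus cellulose highest and GlcNAc lowest. Such separation was common: in wild type 35.4% of the 8455 tested gene models lay wholly higher on bran plus cellulose than on glucose, 35.4% wholly higher than on GlcNAc, and 30.6% wholly lower on GlcNAc than on glucose. In the vib1 mutant BGL1 stood at 490, 462 and 540 FPKM on bran plus cellulose. The mutant libraries had 226, 246 and 306 FPKM on glucose. They had 180, 190 and 194 FPKM on GlcNAc. The media kept the same order in the mutant, again with no overlap. In the mutant 29.8% of tested gene models lay wholly higher on bran plus cellulose than on glucose, and 30.4% wholly higher than on GlcNAc. A further share of 28.1% lay wholly lower on GlcNAc than on glucose. In each medium every mutant library of BGL1 lay above every wild-type library. The mutant lay wholly above wild type for 20.0% of tested gene models on bran plus cellulose, 43.4% on glucose and 48.2% on GlcNAc. Ranked within a library, BGL1 was higher than 92.2% to 96.8% of all gene models on bran plus cellulose and higher than 67.5% to 71.0% of them in wild type on GlcNAc.

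BGL2 behaved as a gene that was high in 1 medium and much lower in the others, and its group means spanned a ratio of 464. In wild type on bran plus cellulose it stood at 1689, 1644 and 1332 FPKM. In the mutant in that medium it stood at 1610, 1519 and 1623 FPKM. All 6 libraries placed it above 98.7% or more of all gene models, and the strains overlapped. With glucose as carbon source, the wild-type libraries had 2.05, 3.24 and 4.94 FPKM of BGL2. The mutant libraries had 29.8, 32.0 and 22.0 FPKM there, a middle level, higher than 48.2% to 56.0% of all gene models. The strains did not overlap on glucose, and each wild-type value lay under all 3 mutant values, as for 43.4% of tested gene models. On GlcNAc BGL2 stood at 6.31, 8.65 and 4.40 FPKM in wild type. The mutant libraries on GlcNAc had 7.60, 8.61 and 8.92 FPKM. The strains overlapped on GlcNAc, where 2 of the 3 mutant libraries lay below the highest wild-type value. In wild type the low groups of BGL2 were also the noisier ones, with a coefficient of variation of 42.6% on glucose and 33.0% on GlcNAc against 12.5% on bran plus cellulose.

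**Figure D1:**
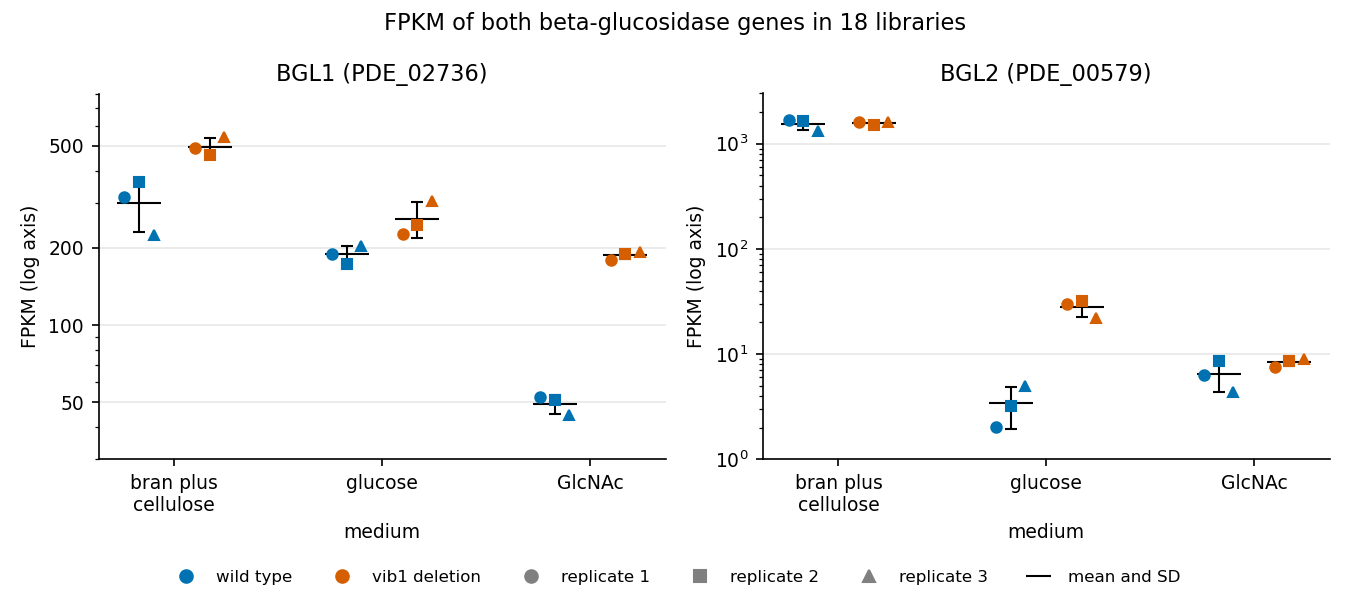
FPKM on a log axis of BGL1 (left) and BGL2 (right) in each of the 18 libraries, by medium; blue is wild type, orange the vib1 mutant (vib1 deletion in the key), marker shapes are replicate numbers, and black bars give the mean and SD of 3 libraries. BGL1 in the mutant lies above wild type in every medium, while BGL2 is at 1332 FPKM or more on bran plus cellulose in both strains and has strain means of 3.41 and 28.0 FPKM on glucose.

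The first question was whether loss of vib1 altered the 2 beta-glucosidase genes in a given medium. Values were compared as log2(FPKM + 1) in 1 limma model of all 18 libraries and 8455 gene models, and a difference was called where the Benjamini-Hochberg adjusted p, over all gene models tested, was under 0.05. This scale understates the changes of low genes such as BGL2 on glucose. On bran plus cellulose the secreted enzyme's gene rose without vib1 while the intracellular enzyme's gene showed no called difference. BGL1 averaged 301 ± 69.1 FPKM (SD, n = 3) in wild type and 497 ± 39.5 FPKM in the mutant, a ratio of 1.65. The log2 difference was 0.75 ± 0.147 (SE; limma adjusted p = 0.00178). BGL2 averaged 1555 ± 194 and 1584 ± 56.6 FPKM, and its log2 difference of 0.03 had a 95% interval from −0.45 to 0.51 (limma adjusted p = 0.94). Thus 1 of the 2 members was called, where 26.7% of all tested gene models were called in this comparison and 4.98% had a larger positive difference than BGL1. Without replicate 3 of wild type, the library with the widest residual spread, the BGL1 difference was 0.55 log2 units (limma adjusted p = 0.00895).

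On glucose the order of the members was turned about, with the larger rise in BGL2. BGL2 averaged 3.41 ± 1.45 FPKM (SD, n = 3) in wild type against 28.0 ± 5.25 FPKM without vib1, a ratio of 8.20. Its log2 difference was 2.75 ± 0.225 (SE; limma adjusted p = 5.85e-08), and 1.48% of tested gene models had a larger one. Even so, the mutant's level on glucose was far under that on bran plus cellulose, which was 56.6 times higher. BGL1 averaged 189 ± 14.98 FPKM in wild type against 259 ± 41.5 FPKM without vib1, a ratio of 1.37. The BGL1 log2 difference was 0.45 ± 0.147 (limma adjusted p = 0.0147). Both members were thus called, in a comparison where 64.8% of all tested gene models were called and the strain difference of the median gene was 0.18 log2 units. The BGL1 call on glucose did not hold relative to that median. After median-ratio rescaling its difference was 0.25 (limma adjusted p = 0.158), without replicate 3 of the mutant it was 0.32 (limma adjusted p = 0.0775), and without replicate 2 of wild type it was 0.39 (limma adjusted p = 0.0574).

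On GlcNAc BGL1 had its largest strain difference, in the medium where wild type had its lowest level. BGL1 averaged 49.3 ± 4.19 FPKM (SD, n = 3) in wild type and 188 ± 7.25 FPKM in the mutant, a ratio of 3.81. The log2 difference was 1.91 ± 0.147 (SE; limma adjusted p = 1.56e-08), and 5.71% of tested gene models had a larger one. BGL2 averaged 6.45 ± 2.13 and 8.38 ± 0.690 FPKM. Its log2 difference of 0.37 had a 95% interval from −0.11 to 0.85 (limma adjusted p = 0.151), so that a rise of the size seen on glucose lay outside the interval while a small rise did not. One member of 2 was called, against 74.5% of all tested gene models. The strain difference of the median gene was 0.20 log2 units. The BGL2 difference on GlcNAc moved both ways with the scaling and the libraries. It was 0.57 log2 units with all libraries rescaled to the same total (limma adjusted p = 0.0264) and 0.15 after median-ratio rescaling (limma adjusted p = 0.549). It was 0.57 without replicate 2 of wild type (limma adjusted p = 0.0364) and 0.16 without replicate 3 (limma adjusted p = 0.554).

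**Figure D2:**
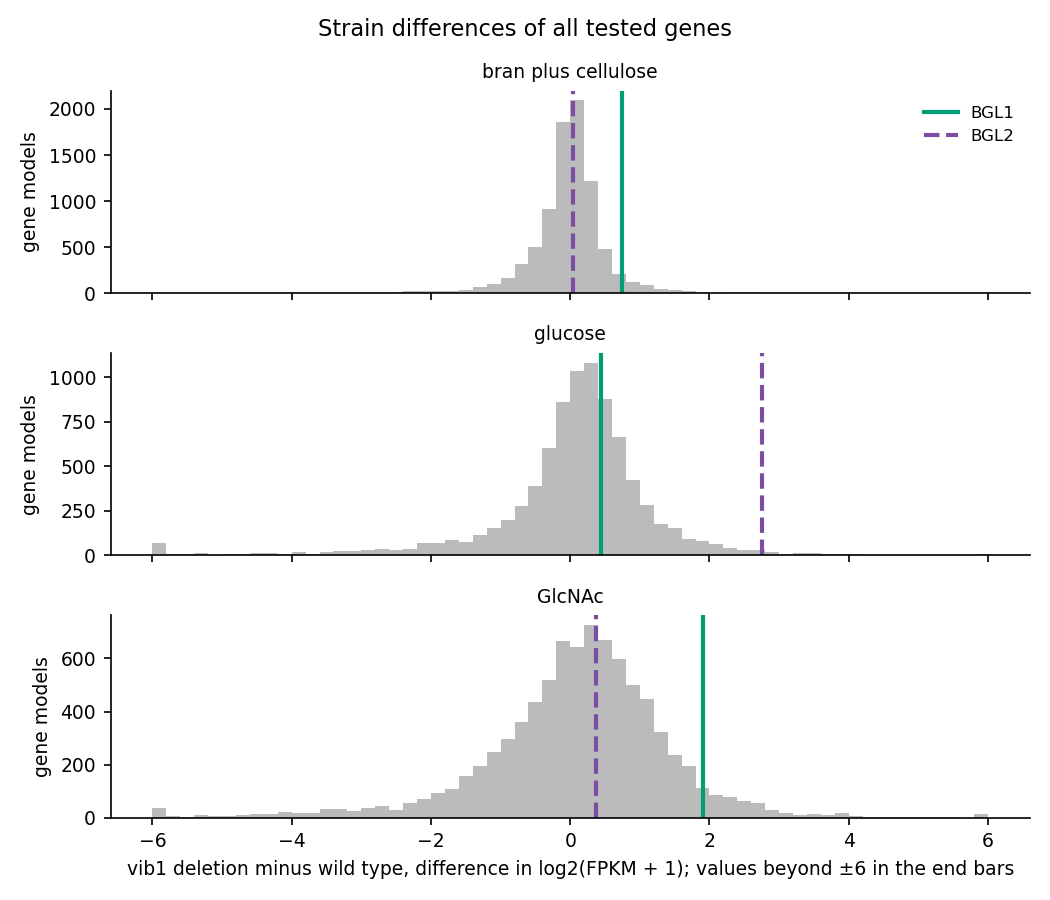
Histograms of the vib1 deletion minus wild type difference in log2(FPKM + 1) for the 8455 tested gene models in each medium, with lines at BGL1 (solid) and BGL2 (dashed); the vertical axis counts gene models. BGL1 lies in the upper tail on bran plus cellulose and GlcNAc and near the bulk on glucose, and BGL2 lies in the upper tail on glucose and near the bulk in the other media.

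A call in one medium and none in another does not show that the deletion effect differed, so the difference of the strain differences was tested itself. The BGL1 effect was larger on GlcNAc than on glucose by 1.46 ± 0.207 log2 units (SE; limma adjusted p = 2.42e-05). It was smaller on bran plus cellulose than on GlcNAc, with a difference of −1.16 ± 0.207 (limma adjusted p = 0.000162). Of tested gene models, 9.86% had a higher value in the first of these tests and 18.7% a lower one in the second. The BGL1 effects on bran plus cellulose and on glucose differed by 0.30 log2 units, with a 95% interval from −0.14 to 0.74 (limma adjusted p = 0.248). After median-ratio rescaling this difference was 0.49 (limma adjusted p = 0.0619). GlcNAc was thus the medium whose BGL1 effect was called different from those in both other media. For BGL2 the medium called different from both others was glucose. The BGL2 effect was lower on bran plus cellulose than on glucose by a difference of −2.72 ± 0.318 log2 units (limma adjusted p = 5.46e-06). It was lower on GlcNAc than on glucose by −2.38 ± 0.318 (limma adjusted p = 1.34e-05). Lower values than those of BGL2 were found for 1.75% of tested gene models against bran plus cellulose and for 4.88% against GlcNAc. Between bran plus cellulose and GlcNAc the BGL2 effects differed by −0.33 log2 units, with a 95% interval from −1.01 to 0.35 (limma adjusted p = 0.368). For GlcNAc against glucose both members were called, in opposite directions, where 59.3% of all tested gene models were called. Only BGL2 was called for bran plus cellulose against glucose, where 52.3% of tested gene models were called, and only BGL1 for bran plus cellulose against GlcNAc, where 67.0% were.

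The second question was how the carbon source set the level of each gene within a strain. The rise of BGL2 from glucose to bran plus cellulose in wild type was a ratio of means of 456, and 1 of the 8455 tested gene models had a larger log2 difference. In the mutant the corresponding ratio was 56.6, with a log2 difference of 5.79 and an SE of 0.225 (limma adjusted p = 7.67e-12), and 79 gene models had a larger one. The strain difference on bran plus cellulose was not called, as given above, and the smaller ratio in the mutant went with its higher level on glucose. BGL1 rose less between these media, by a ratio of 1.59 in wild type (log2 difference 0.65 ± 0.147, limma adjusted p = 0.00215) and of 1.92 in the mutant (0.94 ± 0.147, limma adjusted p = 4.73e-05). Both members were called in both strains, where 48.3% of tested gene models were called in wild type and 62.6% in the mutant.

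GlcNAc set the members apart in wild type. From glucose to GlcNAc BGL1 fell, to a level 3.83 times lower (log2 difference −1.91 ± 0.147, SE; limma adjusted p = 5.53e-08). BGL2 rose by 0.77 ± 0.225 log2 units (limma adjusted p = 0.00857), from 3.41 to 6.45 FPKM on average, although the libraries of the 2 media overlapped. Both were called, as were 59.0% of all tested gene models. The BGL2 call rested on few FPKM and did not hold in a fit to these 6 libraries alone (limma adjusted p = 0.0615), without replicate 1 of wild type on glucose (0.53 log2 units, limma adjusted p = 0.0511) or without replicate 2 of wild type on GlcNAc (0.56 log2 units, limma adjusted p = 0.0517).

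In the mutant both members fell from glucose to GlcNAc. BGL2 went from 28.0 to 8.38 FPKM on average and its log2 difference was −1.61 ± 0.225 (SE; limma adjusted p = 1.31e-05). BGL1 fell from 259 to 188 FPKM, a log2 difference of −0.45 ± 0.147 (limma adjusted p = 0.0128). The share of all tested gene models called here was 68.7%. The BGL1 call was lost without replicate 3 of the mutant on glucose, the highest of its group (−0.33 log2 units, limma adjusted p = 0.0704). Against GlcNAc, the levels on bran plus cellulose were higher for both members in both strains. For BGL1 the ratio was 6.10 in wild type (log2 difference 2.56 ± 0.147, limma adjusted p = 1.32e-09) and 2.65 in the mutant (1.40 ± 0.147, limma adjusted p = 7.57e-07). For BGL2 it was 241 in wild type (7.74 ± 0.225, limma adjusted p = 7.1e-13) and 189 in the mutant (7.40 ± 0.225, limma adjusted p = 1.78e-12). In these comparisons 60.8% of tested gene models were called in wild type and 69.1% in the mutant.

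**Figure D3:**
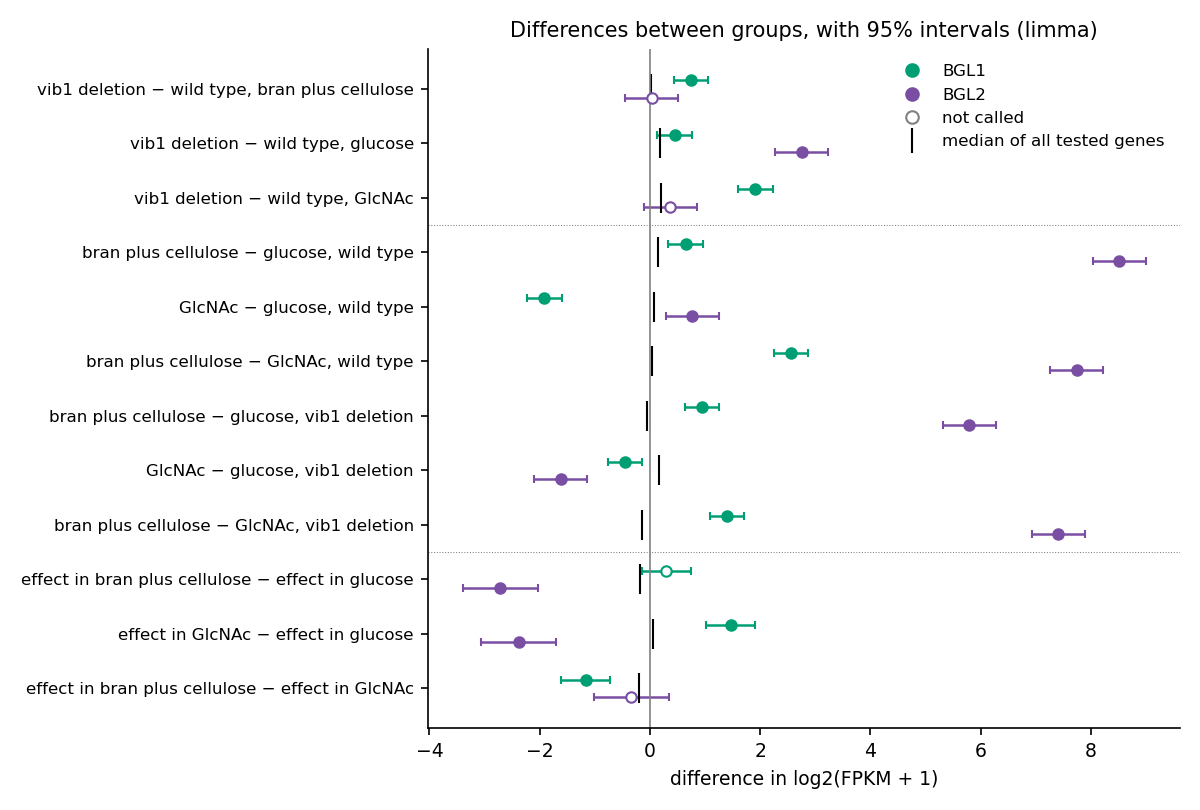
Differences in log2(FPKM + 1) between groups for BGL1 (green) and BGL2 (purple) with 95% intervals from the limma model; open points were not called, black ticks mark the median of all 8455 tested gene models, and the lowest block holds differences of the deletion effect between media. The BGL2 points from glucose or GlcNAc to bran plus cellulose lie between 5.79 and 8.51, and those of BGL1 between 0.65 and 2.56.

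Ordered by level, BGL1 ran from the mutant on bran plus cellulose, through wild type on bran plus cellulose, the glucose groups (mutant first) and the mutant on GlcNAc, down to wild type on GlcNAc. Among neighbours in this order, wild type on bran plus cellulose and the mutant on glucose were not called different (0.20 log2 units, 95% interval −0.12 to 0.51, limma adjusted p = 0.253; 65.2% of tested gene models were called). That pair was called without replicate 3 of wild type on bran plus cellulose (0.39 log2 units, limma adjusted p = 0.0118). Wild type on glucose and the mutant on GlcNAc averaged 189 and 188 FPKM, a difference of 0.00 log2 units with a 95% interval from −0.31 to 0.32 (limma adjusted p = 0.989; 70.4% of tested gene models were called). The other neighbours of BGL1 were called different. BGL2 ran from both strains on bran plus cellulose through the mutant on glucose and the GlcNAc groups (mutant first) down to wild type on glucose. Its neighbours not called different were the strains on bran plus cellulose and the strains on GlcNAc. The step from wild type on bran plus cellulose down to the mutant on glucose was the widest in the order of BGL2, at 5.76 ± 0.225 log2 units (limma adjusted p = 8.27e-12).

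The balance of the pair was then followed within each library, as log2(FPKM + 1) of BGL1 minus that of BGL2. On bran plus cellulose BGL2 was the higher gene per length in all 6 libraries, by a ratio of 4.55 to 5.91 in wild type and of 3.01 to 3.29 in the mutant. On both sugars BGL1 was the higher gene in all 12 libraries. Its ratio to BGL2 was 41.2 to 92.3 in wild type on glucose and 7.57 to 13.9 in the mutant on glucose. On GlcNAc the ratio was 5.91 to 10.1 in wild type and 21.7 to 23.6 in the mutant. Without vib1 the balance lay further towards BGL1 on bran plus cellulose and GlcNAc and further towards BGL2 on glucose, with no overlap of the strains in any medium. The share of other gene pairs so separated was not computed. Single gene models were often separated. The mutant lay wholly above wild type for 20.0% on bran plus cellulose, 43.4% on glucose and 48.2% on GlcNAc. It lay wholly below for 19.3%, 23.8% and 33.4%. The mean balance differed between deletion and wild type by 0.71 log2 units on bran plus cellulose, by −2.30 on glucose and by 1.54 on GlcNAc. In a two-sided exact permutation test each of these had p = 0.1, the smallest that 3 libraries against 3 can give, and the adjusted p over the 9 balance comparisons was also 0.1, so none could pass the threshold. Because FPKM from tag libraries depend on the cutting sites of each transcript, the ratio between genes is less certain than its change between libraries.

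**Figure D4:**
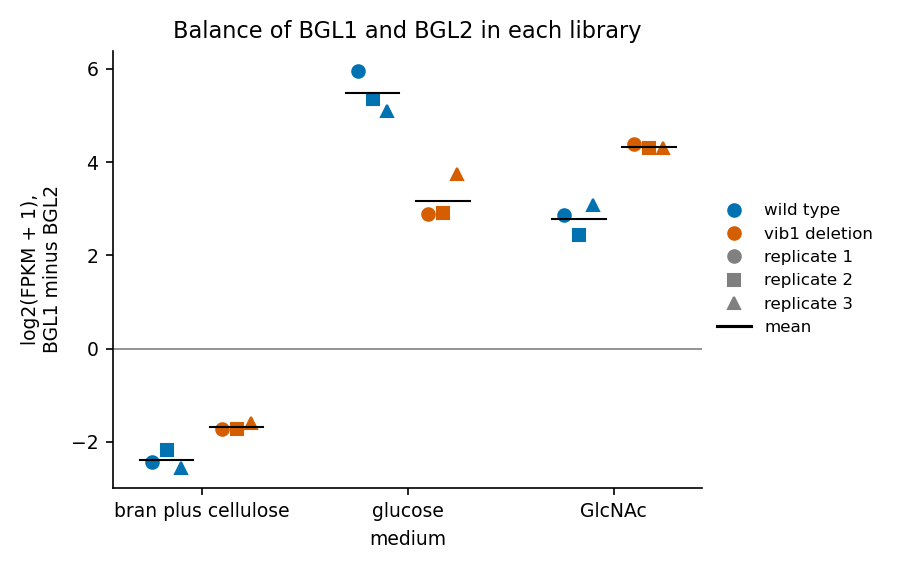
Difference in log2(FPKM + 1), BGL1 minus BGL2, in each of the 18 libraries by medium; blue is wild type, orange the vib1 mutant (vib1 deletion in the key), marker shapes are replicate numbers and black lines are means of 3 libraries. Values below 0 on bran plus cellulose show BGL2 higher than BGL1. The strains do not overlap in any medium, and the share of other gene pairs so separated was not computed.

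Genes with a pattern like that of either member were looked for among 7331 other gene models that had a mean of at least 10 FPKM in some group, by the Pearson correlation of log2(FPKM + 1) over the 18 libraries. The libraries fall into groups that share strain and medium, so these correlations describe a shared pattern over groups and carry no p. The members were not among each other's nearest genes. Their correlation was 0.689, which placed BGL2 at rank 527 for BGL1 and BGL1 at rank 282 for BGL2, and their lists of 5 nearest genes shared 0.

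The 5 gene models most like BGL1 were PDE_09430 (r = 0.97), PDE_05527 (r = 0.95), PDE_00440 (r = 0.95), PDE_02807 (r = 0.95) and PDE_05450 (r = 0.94). All were chosen for this likeness, and each had its lowest group mean in wild type on GlcNAc. PDE_09430 averaged 1.68 ± 0.286 FPKM (SD, n = 3) there and 15.6 ± 0.392 FPKM in the mutant. PDE_00440 averaged 2.50 ± 0.577 and 34.0 ± 1.05 FPKM in these groups. PDE_02807, the one with the narrowest range, averaged 36.5 ± 1.94 and 90.3 ± 13.9 FPKM. On glucose the strain means of PDE_09430, PDE_05527 and PDE_05450 lay further apart by ratio than those of BGL1. In that medium PDE_09430 averaged 12.1 ± 2.89 FPKM with vib1 and 30.0 ± 1.54 FPKM without it. PDE_05527 averaged 59.7 ± 8.41 FPKM with vib1 and 320 ± 73.8 FPKM without it, and PDE_05450 averaged 69.1 ± 5.59 and 236 ± 47.9 FPKM. The last of these was the highest group mean of PDE_05450, against 204 ± 21.6 FPKM in the mutant on bran plus cellulose. The strain means on glucose lay closer together than those of BGL1 for PDE_00440, at 33.7 ± 0.523 and 40.1 ± 3.33 FPKM. The same held for PDE_02807, at 87.1 ± 5.60 and 92.6 ± 11.6 FPKM. No name or role is given to these identifiers in the sources used here.

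The 5 gene models most like BGL2 were PDE_02102 (r = 0.99), PDE_05633 (r = 0.99), PDE_07945 (r = 0.99), PDE_05998 (r = 0.99) and PDE_00607 (r = 0.98). All were chosen for this likeness, so a pattern shared with BGL2 follows from the choice. Each had its highest means on bran plus cellulose, and on glucose each had a higher mean in the mutant than in wild type. On bran plus cellulose PDE_07945 averaged 1802 ± 361 FPKM (SD, n = 3) in wild type and 3166 ± 118 FPKM in the mutant. On glucose PDE_07945 averaged 7.13 ± 0.656 FPKM with vib1 and 35.1 ± 10.4 FPKM without it. PDE_00607 had the highest level on glucose without vib1, 170 ± 38.8 FPKM against 9.56 ± 0.165 FPKM in wild type. On GlcNAc the strain means of PDE_00607 were close, at 22.1 ± 0.522 FPKM in wild type and 23.7 ± 1.95 FPKM in the mutant. Those of PDE_05998 were also close there, at 5.61 ± 0.284 and 5.95 ± 0.373 FPKM. By ratio the GlcNAc means lay further apart for PDE_07945, at 4.91 ± 0.190 FPKM in wild type and 10.1 ± 0.596 FPKM in the mutant. The same held for PDE_02102, at 2.07 ± 0.335 and 3.63 ± 0.471 FPKM. PDE_05633 was near 0 in both strains on GlcNAc, where each averaged 0.0533 ± 0.0924 FPKM, and on glucose its means were 0.163 ± 0.165 FPKM with vib1 and 2.87 ± 1.21 FPKM without it. In all, 51 gene models correlated with BGL2 above 0.9, and 25 with BGL1.

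Gene models with neighbouring tag numbers were described for each member whatever their values, without assuming that the numbers follow the genome. PDE_00578, the tag number just below BGL2, was like BGL2 highest on bran plus cellulose (r = 0.969 over the 18 libraries) but differed from it on the sugars. It averaged 194 ± 26.7 FPKM (SD, n = 3) in wild type and 200 ± 5.35 FPKM in the mutant on bran plus cellulose, and between 21.6 and 39.5 FPKM in the other 4 groups. Its strain means on glucose lay closer together than those of BGL2, at 21.6 ± 1.04 and 28.1 ± 0.549 FPKM. On GlcNAc its strain means lay further apart, at 25.9 ± 0.628 FPKM in wild type and 39.5 ± 2.35 FPKM in the mutant. In the mutant PDE_00578 was thus higher on GlcNAc than on glucose, whereas BGL2 was lower. PDE_00577, PDE_00580 and PDE_00581 had correlations of 0.219, −0.218 and −0.190 with BGL2. Beside BGL1 the pattern of the next lower tag number was the reverse. PDE_02735 (r = −0.942) averaged 54.4 ± 2.09 FPKM in wild type on GlcNAc, its highest group, and 23.1 ± 1.63 FPKM in the mutant there. Its lowest means were 16.2 ± 1.82 FPKM in wild type and 13.2 ± 1.13 FPKM in the mutant on bran plus cellulose, and 15.8 ± 1.97 FPKM without vib1 on glucose. PDE_02737 and PDE_02738 did not exceed 3.95 FPKM in any library, and PDE_02734 was listed at 0 in 17 of 18 libraries.

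**Figure D5:**
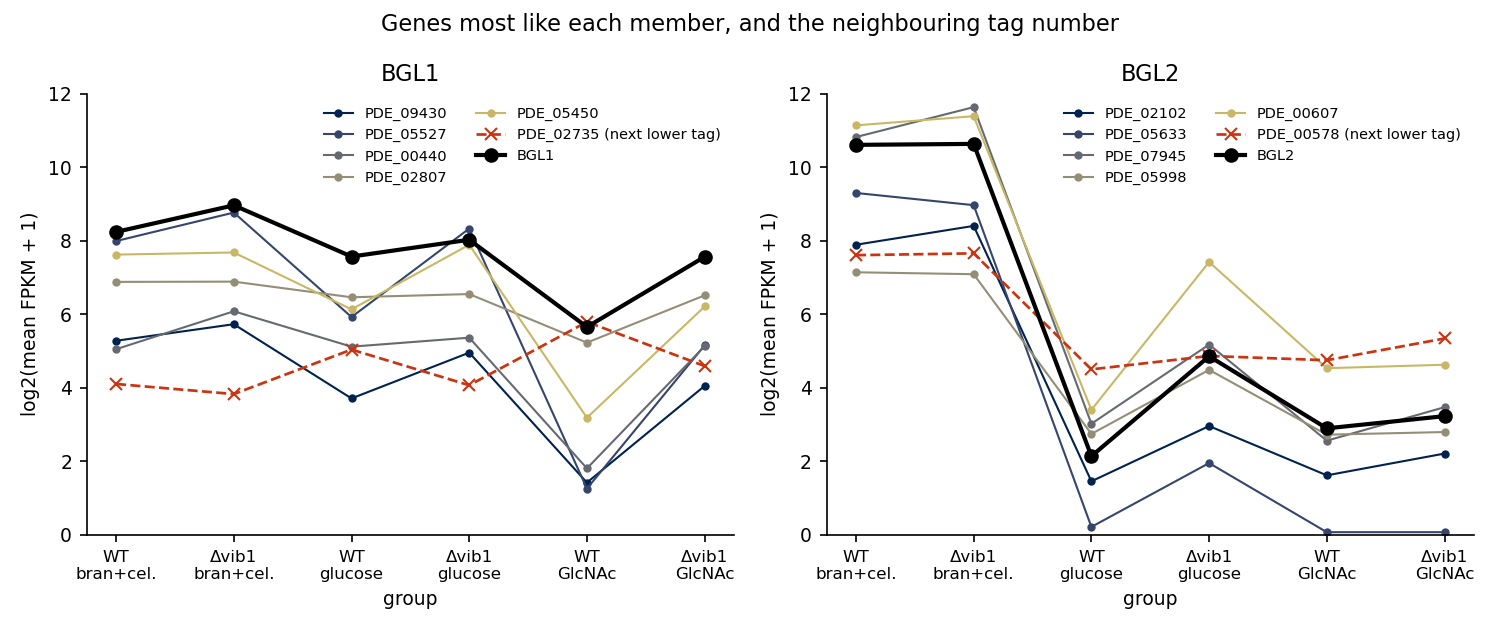
Group means as log2(mean FPKM + 1) of BGL1 (left) and BGL2 (right) in black, of the 5 gene models most like each in thin lines, and of the gene model with the next lower tag number in dashed red, across the 6 groups (WT is wild type, Δvib1 the vib1 mutant). The red line runs against BGL1 on the left. On the right it is highest on bran plus cellulose, as BGL2 is, with less of a strain difference than BGL2 on glucose and more on GlcNAc.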

How the data were processed

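The deposited values are FPKM of 9176 gene models in 18 libraries, per the file headers. Per the labels' protocols, cDNA from poly(A) RNA was cut with NlaIII, tags were released with MmeI and sequenced on an Illumina instrument. The sources used here do not name the aligner, quantifier, genome build or gene lengths, or give read depth. A check for whole steps among 30132 low values put 18.6% of them within 0.1 of a step, against 20% under an even spread. The FPKM of a fragment varies with library depth, which is unknown, so this share cannot show whether low values fall on steps. An exact 0 can be a failed estimate. None of the 9964 rows of the reference table (assembly of strain HP7-1) matched an identifier, so the list of other pathway genes was empty and no sequence is shown.

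Groups came from the sample titles. Values were analysed as log2(FPKM + 1); a gene model was tested where 3 or more libraries had 1 FPKM or more (8455 passed and 721 did not). One model with 6 group means was fitted with limma 3.58.1 in R 4.3.3 (eBayes, robust and with a mean-variance trend; 12 residual degrees of freedom), two-sided, with Benjamini-Hochberg adjustment. The fit was tested on simulated data. The balance of the members was tested by exact permutation, and figures were drawn with matplotlib 3.10.9. Named beside the members were the 5 gene models most like each and the 2 tag numbers on either side. Members and lists were chosen with earlier results of these data known. Alternatives covered pseudocounts, filters, 3 rescalings, limma settings, the groups in the fit, a replicate block and leaving out each library.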

Additional observations from a re-analysis of the deposited data

Results flagged for a closer look

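The deletion effect on the members differed between media in 4 of the 6 interaction tests made, each in the limma model over all genes. Differences of this kind were common: of all tested gene models, 52.3% were called for bran plus cellulose against glucose, 59.3% for GlcNAc against glucose and 67.0% for bran plus cellulose against GlcNAc, so the members' share is near the background. For BGL1 the effect in GlcNAc exceeded that in glucose by 1.46 log2 units (limma adjusted p = 2.42e-05). All 3 deletion libraries were above all 3 wild-type libraries in both media, a separation that 43.4% of tested gene models showed in glucose and 48.2% in GlcNAc. The BGL1 effect in bran plus cellulose minus that in GlcNAc was −1.16 (limma adjusted p = 0.000162), again with 3 of 3 deletion libraries above wild type in each medium, which held for 20.0% of tested gene models in bran plus cellulose. For BGL2 the effect in bran plus cellulose minus that in glucose was −2.72 (limma adjusted p = 5.46e-06). The BGL2 effect in GlcNAc minus that in glucose was −2.38 (limma adjusted p = 1.34e-05). In glucose 3 of 3 deletion libraries were above wild type for BGL2, as for the 43.4% of tested gene models given above, while in the other media the strains overlapped. Groups of 3 libraries are too small for a search for single outlying libraries.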

How the results depend on the processing

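Of 27 tests of the members, 20 kept their direction and their side of the threshold under every alternative tried, and 477 of 495 alternative values changed neither. Values here are differences in log2(FPKM + 1). The BGL1 strain difference in glucose became 0.25 (limma adjusted p = 0.158) after median-ratio rescaling, which sets libraries relative to the median gene, and ranged from 0.32 to 0.54 with 1 library left out. The BGL1 difference of GlcNAc from glucose in the mutant ranged from −0.55 to −0.33 with 1 library left out. The BGL2 strain difference in GlcNAc became 0.57 (limma adjusted p = 0.0264) with all libraries rescaled to the same total and 0.15 (limma adjusted p = 0.549) after median-ratio rescaling, and ranged from 0.16 to 0.57 with 1 library left out. The BGL2 difference of GlcNAc from glucose in wild type stayed at 0.77 but missed the threshold when only the compared libraries were fitted (limma adjusted p = 0.0615), and ranged from 0.53 to 1.01 with 1 library left out. The causes of these changes were not tested.

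Some differences near 0 that were not called changed sign. The BGL2 strain difference in bran plus cellulose was −0.062 with array weights and ranged from −0.074 to 0.097 with 1 library left out. BGL1 in the mutant in GlcNAc minus wild type in glucose was 0.12 with equal totals, 0.030 with quantile normalization and 0.025 with array weights, and ranged from −0.063 to 0.051 with 1 library left out. BGL1 in the mutant in glucose minus wild type in bran plus cellulose, −0.20 and not called in the main fit, kept its sign. It was called at −0.41 with array weights (limma adjusted p = 0.00397) and ranged from −0.39 to −0.051 with 1 library left out.

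The balance of the members kept its direction in all 81 alternative values. With a pseudocount of 5 its strain difference in glucose was −1.53, and its differences of bran plus cellulose were −6.91 from glucose in wild type, −4.63 from GlcNAc in wild type and −5.51 from GlcNAc in the mutant. With a pseudocount of 0.1 the last of these was −6.15. A larger pseudocount shrinks the differences of low values by construction, and BGL2 on the sugars is low. The count of all genes called between strains in bran plus cellulose was 2258 with 18 libraries fitted and 1218 with the 6 of that medium. For the genes most like each member, comparisons chosen after seeing the data kept 4 or 5 of the 5 under other pseudocounts and quantile normalization.

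With the replicate block no call of a member changed, and the BGL1 strain difference in glucose stayed at 0.45 (limma adjusted p = 0.024). Same-numbered libraries showed no strong shared deviation (correlations of deviations from −0.107 to 0.181, of which 3 of 27 were over 0.1). Such correlations cannot show whether same-numbered libraries were grown or prepared together.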
